A study of Mus musculus with 2 samples.

Results

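The expression of 10 genes from 3 families of sugar- or calcium-binding proteins was examined in mouse liver. They are the galectin genes Lgals1, Lgals3, Lgals8 and Lgals9, the annexin genes Anxa1, Anxa2 and Anxa5, and the S100 genes S100a6, S100a10 and S100a11, out of 18194 genes with a probe set of their own. A gene was read from the probe sets annotated to it alone, and the brightest of these by mean signal over both arrays gave its value. Of the 10 genes, 9 had such a probe set, 16 probe sets in all, and 8 reached a signal of 200 in at least 1 pool and are called measured below. S100a6 did not reach it in either pool. The probe set that lists S100a11 also lists 2 other genes, so S100a11 was not read.

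FLS livers, the model of NASH, were compared with DS livers, the model of simple steatosis, at 19 weeks of age. FLS and DS are inbred strains from separate lines (C and A) of the outbred ddN colony, and the mice of both strains received the same standard pellet diet. Liver RNA of 3 mice was pooled for each strain after saline perfusion, and each pool was hybridized to 1 Affymetrix mouse genome array. With a single array per strain there was no replicate and hence no test, and the ratios below describe this pair of arrays. In whole liver, fewer cells of a type and less RNA in each cell cannot be told apart.

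Galectins are lectins that bind beta-galactoside sugars on glycoproteins, inside and outside the cell. Annexins bind the acidic phospholipids of membranes when calcium is present, and S100 proteins are small calcium-binding dimers that often act through partners, annexins among them. In the liver these proteins are best known from macrophages, stellate cells, bile duct cells and other cells around the hepatocytes, and from injured tissue.

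The array median signal was 120.3 in the FLS pool against 125.2 in the DS pool, and of 45101 probe sets 32.5% reached 200 on the FLS array against 32.8% on the DS array. The median log2 FLS/DS ratio over 9160 measured genes was 0.030. The hepatocyte transcription factor gene Hnf4a had signals of 7838 in FLS livers against 6995 in DS livers, and 9 hepatocyte markers, all measured, had ratios between 1.01 and 1.35.

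In FLS livers, 4 of the 8 measured genes were at least 1.5-fold higher than in DS livers, namely Lgals3, Anxa1, S100a10 and Anxa2. Such a ratio was found in 5.35% of all measured genes. Lgals3 alone was at least 2-fold higher, which applied to 1.89% of all measured genes. Anxa5 alone was at least 1.5-fold lower, against 3.54% of all measured genes, and it was also at least 2-fold lower, against 1.30%. Lgals1, Lgals8 and Lgals9 lay within 1.5-fold of equality. Over the 8 genes the median log2 ratio came to 0.39. The genes were proposed with results of these arrays known, so these shares are descriptions only.

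**Figure D1:**
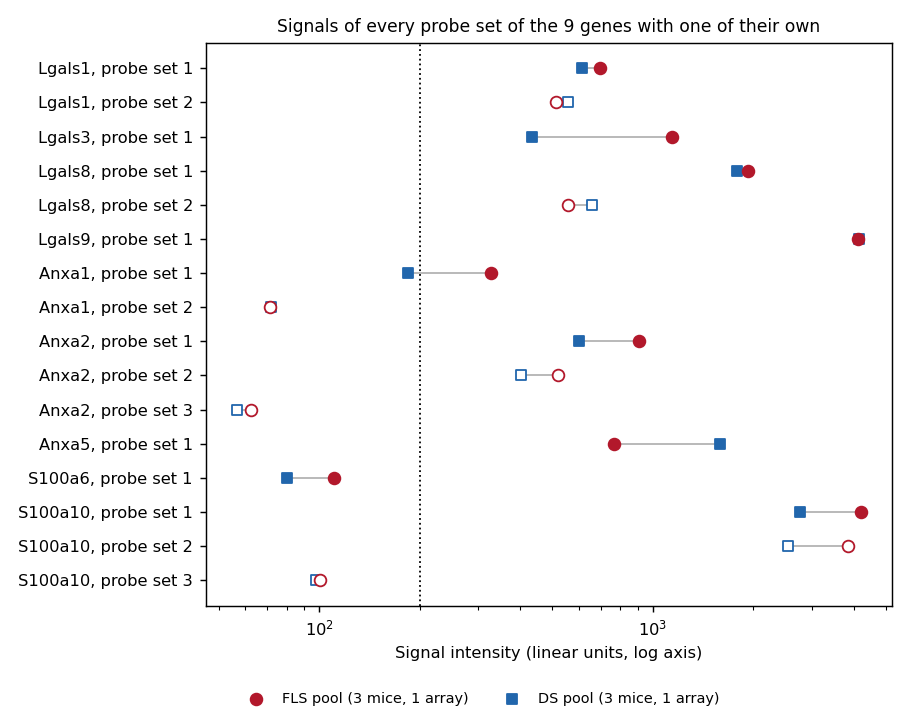
Signal intensity (log axis) of each probe set of the 9 genes in the FLS pool (red circles) and the DS pool (blue squares), 1 array each. Filled symbols mark the probe set that gives the value of its gene, open symbols the others, and the dotted line a signal of 200. Lgals3 has its FLS signal 2.63-fold to the right of its DS signal, Anxa5 has it to the left, and the symbols of Lgals9 coincide.

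The promoters of 4 genes past 1.5-fold are shown so that the start of each gene can be read beside its ratio. Each run holds the 250 bases before the start of transcription in RefSeq (GRCm38.p6), 5′ to 3′ on the strand of the gene. Lgals3 (chr14:47373610-47373859, plus strand), Anxa1 (chr19:20390672-20390921, minus strand) and Anxa2 (chr9:69453433-69453682, plus strand) were higher in FLS livers, and Anxa5 (chr3:36475888-36476137, minus strand) was lower. Of the 10 genes, 8 had an entry in the promoter table, the exceptions being Lgals1 and S100a10, so S100a10 is left out although it too was past 1.5-fold. Capitals mark matches, on either strand, to the TATA box TATAAA, the AP-1 element TGANTCA, the GC box GGGCGG or the TEAD element GGAATG.
Lgals3: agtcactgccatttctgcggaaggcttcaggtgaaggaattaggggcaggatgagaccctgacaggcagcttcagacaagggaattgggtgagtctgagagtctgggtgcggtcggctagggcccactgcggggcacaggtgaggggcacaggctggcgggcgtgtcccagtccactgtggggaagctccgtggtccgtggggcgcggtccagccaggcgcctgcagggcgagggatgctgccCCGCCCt
Anxa1: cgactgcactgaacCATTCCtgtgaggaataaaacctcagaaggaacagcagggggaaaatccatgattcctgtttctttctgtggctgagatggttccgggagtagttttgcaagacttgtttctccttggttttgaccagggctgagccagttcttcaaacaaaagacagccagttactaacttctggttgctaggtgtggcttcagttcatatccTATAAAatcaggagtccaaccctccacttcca
Anxa2: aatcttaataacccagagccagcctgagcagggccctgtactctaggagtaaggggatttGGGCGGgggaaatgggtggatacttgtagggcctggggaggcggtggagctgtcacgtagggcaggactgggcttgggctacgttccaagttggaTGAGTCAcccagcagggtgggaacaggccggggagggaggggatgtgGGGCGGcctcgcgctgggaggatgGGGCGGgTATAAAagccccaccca
Anxa5: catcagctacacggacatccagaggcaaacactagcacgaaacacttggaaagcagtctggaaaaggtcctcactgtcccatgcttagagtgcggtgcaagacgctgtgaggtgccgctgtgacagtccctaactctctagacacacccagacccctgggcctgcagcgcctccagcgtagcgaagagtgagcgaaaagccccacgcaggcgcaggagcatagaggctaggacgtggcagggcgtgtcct

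Anxa2 held 1 TATA box, 1 AP-1 match and 3 GC boxes in this window, none of them overlapping. Anxa1 held 1 TATA box and 1 TEAD match, Lgals3 held 1 GC box on the opposite strand, and Anxa5 held none of the 4 motifs. No motif was common to all of Lgals3, Anxa1 and Anxa2, while Anxa2 shared the TATA box with Anxa1 and the GC box with Lgals3. Over 32851 promoters of the same length, 12.4% held the TATA box, 6.75% the AP-1 element, 32.7% the GC box and 12.6% the TEAD element. A match describes letters only, and factor binding was not measured. GC content was 66.0% for Lgals3, 62.4% for Anxa2, 58.8% for Anxa5 and 46.0% for Anxa1.

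Lgals3 encodes galectin-3, a galectin with a single sugar-binding domain and a collagen-like tail, long used as the macrophage antigen Mac-2. Its signals were 1141 in the FLS pool against 434 in the DS pool, a ratio of 2.63 and the highest of the 8. It ranked 86 among 9160 measured genes, and 0.939% of them had a ratio as high. Both signals of Lgals3 lay well above 200, and the single probe set leaves no second reading of this gene. Under 4 other scalings of the arrays the ratio was between 2.55 and 3.03.

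The other 3 galectin genes lay within 1.5-fold of equality. Lgals1 encodes galectin-1, a dimeric lectin made largely by mesenchymal cells. Its first probe set had signals of 693 in FLS livers against 612 in DS livers (ratio 1.13), and its second 514 in FLS livers against 557 in DS livers (ratio 0.923). The 2 readings fell on opposite sides of 1, so no direction can be given.

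Lgals8 and Lgals9 encode galectins with a pair of sugar-binding domains in one chain. Galectin-8 recognizes sugars exposed on damaged endosomes and lysosomes, and galectin-9 is a ligand of TIM-3 on T cells. Lgals8 had signals of 1935 in FLS livers against 1787 in DS livers (ratio 1.08) on one probe set, and 557 in FLS livers against 657 in DS livers (ratio 0.848) on the other. These readings too fell on both sides of 1. Lgals9 had signals of 4124 in FLS livers against 4146 in DS livers, a ratio of 0.995, and its ratio ran from 0.986 to 1.15 under the other scalings.

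The 3 annexin genes did not share a direction. Anxa1 encodes annexin A1, an anti-inflammatory protein induced by glucocorticoids that acts through the formyl peptide receptor FPR2. Its signals were 327 in the FLS pool against 184 in the DS pool, a ratio of 1.78. The DS signal lay below 200, so the ratio is a bound, and with the DS signal set to 200 it was at least 1.64-fold higher. A second probe set of Anxa1 was at 71.4 in FLS livers against 71.7 in DS livers, too low to be read.

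Anxa2 encodes annexin A2, which forms a tetramer with S100A10 at the cell surface and there binds plasminogen. Its first probe set had signals of 908 in the FLS pool against 599 in the DS pool, a ratio of 1.52. Its second had signals of 519 in FLS livers against 403 in DS livers, a ratio of 1.29, and the remaining probe set was below 200 in both pools. The readings shared their direction but only the first passed 1.5-fold. That ratio was below 1.5 under quantile normalization (1.47) and after removal of a loess trend (1.49).

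Anxa5 encodes annexin A5, which coats phosphatidylserine on membranes and is widely used to stain dying cells. Its signals were 765 in the FLS pool against 1596 in the DS pool, 2.09-fold lower in FLS livers. Of all measured genes, 1.16% had a ratio as low. It was the single gene of the 8 past 1.5-fold in this direction, and it rests on 1 probe set. The ratio was between 0.469 and 0.552 under the other scalings.

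S100a10 encodes S100A10, also named p11, the partner of annexin A2 and unusual among S100 proteins in needing no calcium. Its first probe set had signals of 4213 in the FLS pool against 2754 in the DS pool, a ratio of 1.53. Its second had signals of 3837 in FLS livers against 2546 in DS livers, a ratio of 1.51. These 2 readings lay close together, while the remaining probe set was at 100.7 in FLS livers against 97.7 in DS livers and too low to be read. The ratios of S100a10 (1.53) and of its partner Anxa2 (1.52) were nearly equal on the probe sets that give their values. On their second probe sets they were 1.51 for S100a10 and 1.29 for Anxa2. S100a6 encodes calcyclin, an S100 protein of fibroblasts and epithelia. Its signals were 110.5 in the FLS pool against 80.1 in the DS pool, both below 200, so no ratio is given.

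**Figure D2:**
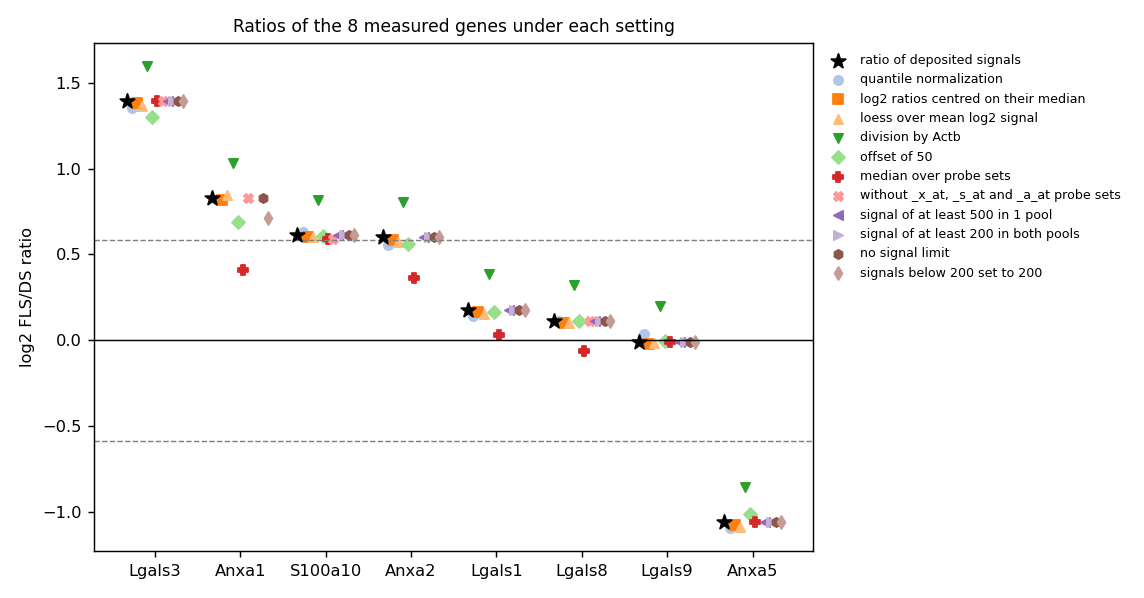
The log2 FLS/DS ratio of the 8 measured genes, ordered by ratio, from the deposited signals (stars) and under 11 other settings (other symbols), with dashed lines at 1.5-fold higher and lower. Lgals3 is highest and Anxa5 lowest under every setting that gave them a ratio, while Anxa2 and Anxa1 cross the upper line, Anxa1 at 1.33 for the median over its probe sets.

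Across the 3 families 39 mouse genes were listed, of which 34 had a probe set of their own and 17 were measured. In FLS livers, 4 of these 17 exceeded DS livers by 1.5-fold or more and 2 fell short of them by as much. Over all measured genes the shares were 5.35% and 3.54%. Actb itself had signals of 6891 in FLS livers against 7944 in DS livers, a ratio of 0.867, so division by it raises the ratio of every gene. With every ratio divided by the Actb ratio the counts were 5 higher and 1 lower, Anxa6 joining the first and Lgalsl leaving the second. Shares of all genes are not given for that scaling. The 4 higher genes were all among the 10 described here, which were chosen with results of these arrays known. Of the 9 other measured genes, none was past 1.5-fold upward and Lgalsl was past it downward. Lgalsl encodes a galectin-related protein, with a signal of 457 in FLS livers against 694 in DS livers and a ratio of 0.659. The median log2 ratio was 0.21 over these 9 genes and likewise 0.21 over all 17, or 0.12 and 0.18 with signals below 200 set to 200.

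Among the other galectins, Lgals4, a galectin of gut epithelium, had signals of 215 in FLS livers against 169 in DS livers, and Lgals12, known from fat cells, 190 in FLS livers against 243 in DS livers. One signal of each lay below 200. Among the other annexins, Anxa6 had signals of 827 in FLS livers against 583 in DS livers, a ratio of 1.42. Anxa7 had a ratio of 1.18 and Anxa4 of 1.16, so every measured annexin except Anxa5 had a ratio above 1, as it did under the 4 other scalings.

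**Figure D3:**
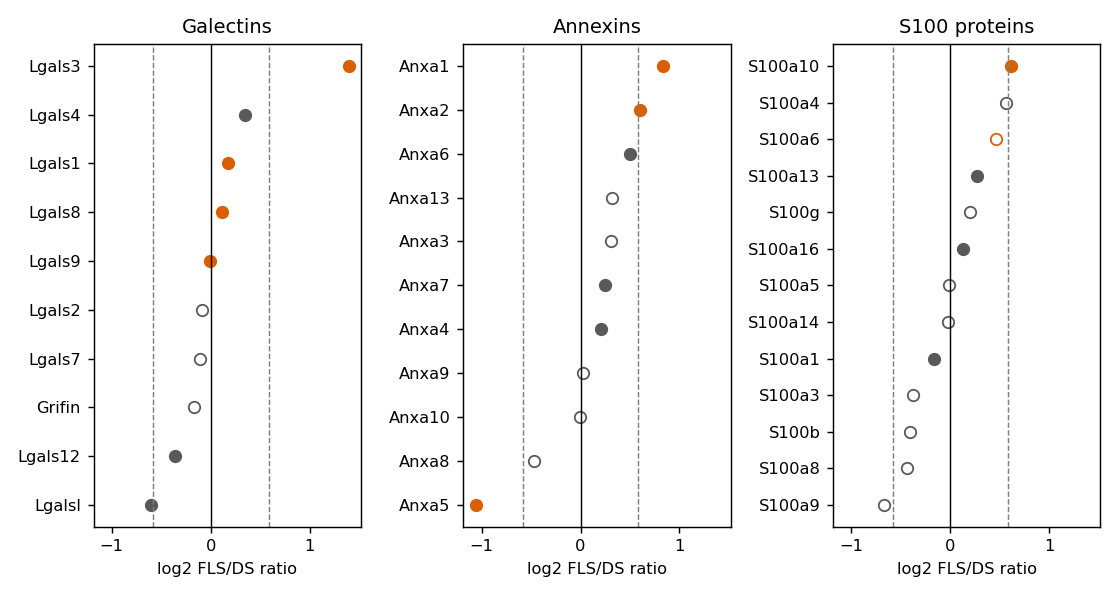
The log2 FLS/DS ratio of the 34 listed galectin, annexin and S100 genes with a probe set of their own, ordered within each family and drawn from the signals as deposited. Orange marks the chosen genes, grey the others, filled symbols a signal of at least 200 in 1 pool, open symbols lower signals, and dashed lines 1.5-fold higher and lower. Lgals3 lies farthest to the right (2.63-fold) and Anxa5 farthest to the left (2.09-fold lower), and 17 of 34 symbols are filled.

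Most S100 genes lie in a row on mouse chromosome 3. In the RefSeq order (GRCm38.p6), S100a10 stands last of 15, with 1 gene between it and S100a11, and 77 genes separate S100a11 from the next S100 gene, S100a7l2. Of these 15, 12 had a value, S100a7l2 included, which is not among the 39 listed genes, and 4 were measured. S100a1, known from heart muscle, opens the row with a signal of 2491 in FLS livers against 2789 in DS livers (ratio 0.893, or 1.03 after division by Actb). S100a13 had signals of 727 in FLS livers against 605 in DS livers (ratio 1.20), and S100a16 had signals of 755 in FLS livers against 692 in DS livers (ratio 1.09). S100a10 was thus the single measured gene of the row past 1.5-fold. Before S100a6 in the row stand S100a4 and S100a5, both below 200 in both pools. S100a4, a fibroblast and leukocyte gene, was at 108.2 in FLS livers against 73.5 in DS livers and S100a5 was at 179 in FLS livers against 180.2 in DS livers.

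Most measured ligands and partners of these proteins lay within 1.5-fold of equality, as did 8346 of all 9160 measured genes. Of 15 genes of galectin ligands and glycan branching, 11 were measured, with a median log2 ratio of 0.21 against 0.030 over all measured genes. Past 1.5-fold, 1 lay on the higher side (3 after division by Actb, which raises every ratio) and none on the lower. Over all measured genes, before that division, the shares were 5.35% and 3.54%. The higher one was Mgat5, the enzyme whose branched N-glycans are favoured ligands of galectin-3. Its signals were 310 in the FLS pool against 147 in the DS pool, and with the DS signal set to 200 it was at least 1.55-fold higher. Ptprc, the leukocyte phosphatase CD45, had a ratio of 1.49, the hyaluronan receptor gene Cd44 of 1.37 and Itga1, an integrin subunit gene, of 1.27. Lgals3bp, which encodes a secreted binding protein of galectin-3, had a ratio of 1.18. Of the 11 measured genes of this list, 9 had a ratio above 1 and 2 below it (11 and 0 after division by Actb).

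Of 15 partners and receptors of annexins and S100 proteins on the array, 6 were measured and all 6 lay within 1.5-fold of equality, with a median log2 ratio of 0.014. Of all 9160 measured genes, 8346 lay within it too, and their median was 0.030. Cacybp, which encodes the calcyclin-binding protein, had signals of 964 in FLS livers against 1304 in DS livers, a ratio of 0.739. Ahnak, the large scaffold protein bound by annexin A2 and S100A10, had signals of 308 in FLS livers against 260.2 in DS livers, a ratio of 1.18. The plasma membrane repair gene Myof had a ratio of 0.888, or 1.02 after division by Actb, and Plg, which encodes plasminogen, of 1.10. Fpr2, the gene of the annexin A1 receptor, had signals of 239.8 in FLS livers against 257 in DS livers.

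Markers of the cells known to express these genes did not share a direction, and their part in the ratios above was not tested. Sums below are over all markers on the array, those below 200 included, and counts past 1.5-fold are with signals below 200 set to 200. Of 10 markers of Kupffer cells and macrophages, all measured, none was past 1.5-fold on the higher side and 2 were past it on the lower side, with summed signals of 6577 in FLS livers against 7713 in DS livers. The lowest was the macrophage complement receptor gene Vsig4 at 0.554, followed by Cd5l at 0.657, or 0.757 after division by Actb. The Kupffer cell markers Clec4f (0.730) and Adgre1 (0.744) were also below 1. Timd4 was at 115.4 in FLS livers against 202.5 in DS livers, so with the FLS signal set to 200 it was bounded only at a ratio of 0.988. Lyz2, the lysozyme gene of myeloid cells, had a ratio of 1.43, or 1.65 after division by Actb. Of 7 markers of monocyte-derived macrophages, 3 were measured and 2 were at least 1.5-fold higher (1 under quantile normalization, Cd9 then being at 1.48), with summed signals of 1905 in FLS livers against 1367 in DS livers. These were Gpnmb, a gene of lipid-laden macrophages, at 349.5 in FLS livers against 124.9 in DS livers, thus at least 1.75-fold higher with the DS signal set to 200, and the tetraspanin gene Cd9 at 858 in FLS livers against 560.2 in DS livers. The defining markers Ccr2, Itgam, Trem2 and Cx3cr1 were below 200 in both pools.

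Of 10 stellate cell markers 8 were measured. Of these, 3 were past 1.5-fold higher (6 after division by Actb, which raises every ratio) and none past it lower. The shares over all measured genes before that division were 5.35% and 3.54%. Summed signals over all 10 were 13863 in FLS livers against 9740 in DS livers. The largest part was Dcn, at 6550 in FLS livers against 4770 in DS livers (ratio 1.37, or 1.58 after division by Actb). The 3 past 1.5-fold before that division were the collagen gene Col3a1 at 2.78, Lum at 2.30 and the growth factor receptor gene Pdgfrb. Pdgfrb was at least 1.81-fold higher with its DS signal set to 200. Lum, a fibroblast proteoglycan gene, had signals of 475 in FLS livers against 206.9 in DS livers. Of the 8 measured markers, 6 had a ratio above 1 and 2 below it. Lrat, the retinol esterase of quiescent stellate cells, had a ratio of 0.880, or 1.01 after division by Actb. Acta2 had a ratio of 0.919, or 1.06 after division by Actb. Of 6 cholangiocyte markers on the array, Sox9 and Epcam were measured, with summed signals of 867 in FLS livers against 677 in DS livers over all 6. The higher sum in FLS livers rests on Sox9. Sox9, a transcription factor gene of bile ducts, was at 365 in FLS livers against 140.2 in DS livers, at least 1.83-fold higher with the DS signal set to 200. Epcam, an adhesion molecule gene of epithelia, was at 181.6 in FLS livers against 210.9 in DS livers, with a ratio of 0.948 once the FLS signal was set to 200. The duct keratins Krt19 and Krt7 were below 200 in both pools.

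Of 8 markers of sinusoidal endothelium 6 were measured and 1 was at least 1.5-fold higher, Tek at 1.83, with summed signals of 6480 in FLS livers against 5891 in DS livers. Among all measured genes 5.35% were at least 1.5-fold higher. Of 8 neutrophil markers on the array 3 were measured, none past 1.5-fold in either direction, with summed signals of 1172 in FLS livers against 1289 in DS livers. Csf3r and Ngp, above 200 in both pools, each had a ratio of 1.05. The lower neutrophil sum in FLS livers thus rests on markers with a signal below 200. The neutrophil-defining pair S100a8 and S100a9 lay below 200 in both pools. Of 8 markers of T and NK cells 2 were measured, none past 1.5-fold, with summed signals of 1157 in FLS livers against 1160 in DS livers. No marker of B cells was measured among 3 on the array, with summed signals of 295 in FLS livers against 319 in DS livers. That sum holds signals below 200 only. Of 2 erythroid markers on the array Alas2 was measured, at 847 in FLS livers against 5423 in DS livers, while Hba-a1 was at 52.7 in FLS livers against 52.1 in DS livers.

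**Figure D4:**
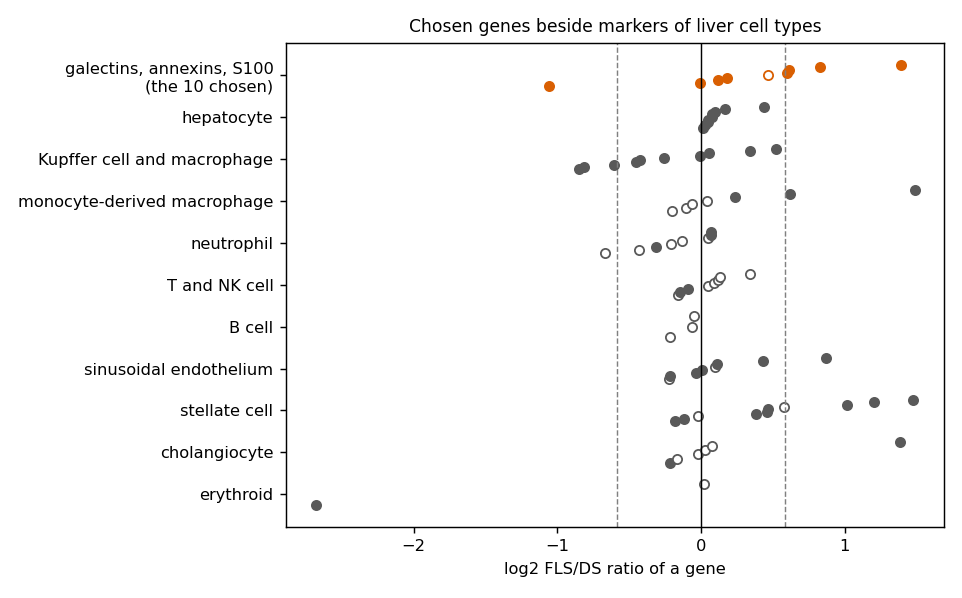
The log2 FLS/DS ratio of the chosen genes (orange) and of markers of 10 liver and blood cell types (grey), 1 symbol per gene, with filled symbols for a signal of at least 200 in 1 pool and open symbols for lower signals. Dashed lines mark 1.5-fold higher and lower. The hepatocyte markers lie between ratios of 1.01 and 1.35, the macrophage markers reach down to 0.554, and Gpnmb and Sox9 are drawn at ratios over DS signals below 200, their bounds being 1.75 and 1.83.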

How the data were processed

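Linear signal intensities, 1 column for the FLS pool and 1 for the DS pool, were deposited. The authors used the MBEI (PM-only) algorithm, which models perfect-match probes only, for both normalization and summary values. Details of the scaling between arrays are not given in the sources used here. In the submitters' processing notes affy is named with no version. Probe sequences were not used, so cross-hybridization and strain differences in a probe were not tested.

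The platform annotation gave 1 symbol to 34958 probe sets, several to 932 and none to 9211, and old symbols were replaced by Entrez number from RefSeq (GRCm38.p6). Ratios are FLS signal over DS signal, without offset or further scaling. A ratio with 1 signal below 200 was treated as a bound, and none was given with both below it. The members and lists were chosen with earlier results of these data known. Named in the text are all 10 genes, the measured genes of their families, up to 4 measured genes with the largest absolute log2 ratio in each other list, and defining cell markers. Lgals3bp, Fpr2, S100a4, S100a5, S100a7l2, Hba-a1, Acta2, Dcn and the markers given as below 200 were named after their values were seen.

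The number of arrays, 2 in all, limits the precision. The ratio calculation was tested on simulated data. The software was statsmodels 0.14.6 for loess, pandas 2.3.3, numpy 2.4.6 and, for plots, matplotlib 3.10.9, under Python 3.11.15.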

Additional observations from a re-analysis of the deposited data

How the results depend on the processing

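Ratios were recomputed under 10 alternatives and 1 added after the data were seen (signals below 200 set to 200), and shifts were set against 0.26 (log2), which is the pooled SD of the log2 ratios among measured probe sets within each of 3209 genes. Of 82 ratios of the 8 genes, 81 shifted by less, the exception being Anxa1 at 1.33 for the median over its probe sets, and none of the 5 ratios past 1.5-fold changed direction where it could be computed. Many of the 81 were bound to shift by less. A changed signal limit leaves a ratio as it was, as does a median over a single probe set. Division by Actb adds the same 0.21 to every log2 ratio, which is below 0.26. The count of chosen genes at least 1.5-fold higher ran from 2 to 4, with 2 for the median over probe sets. The count at least 2-fold higher was 2 after division by Actb, which shifted the median of all genes by 0.21 on the log2 scale. Without probe sets ending in _x_at, _s_at or _a_at only 4 chosen genes were measured, Anxa5 not among them, so 0 were lower and the median log2 ratio was 0.71. That median was 0.18 with a limit of 500 and with 200 required in both pools, and 0.20 for the median over probe sets. Over the 3 families, the median over probe sets left 2 genes at least 1.5-fold higher. The lower ones numbered 1 rather than 2 after division by Actb, with an offset of 50, for the median over probe sets and without those probe sets. The median over probe sets also takes in those below 200 in both pools. One of Anxa1 was at 71.4 in FLS livers against 71.7 in DS livers, and one of Anxa2 at 62.6 in FLS livers against 56.7 in DS livers. The cause of these shifts was otherwise not tested, apart from the smaller number of genes. No paired analysis was possible because each strain has 1 array. No array could be left out for the same reason.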
